A study of Rattus norvegicus with 6 samples.

Results

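The insulin-like growth factor (IGF) system of the lateral ventricular choroid plexus was described here from its 2 ligands, Igf1 and Igf2, its 2 receptors, Igf1r and Igf2r, and the 6 binding proteins Igfbp2 to Igfbp7. Members were chosen by gene symbol, and the arrays held 23 probe sets annotated to only 1 of them. All 10 genes were on the array and all 10 were tested, out of 14217 genes with a probe set of their own and 10334 that were tested. For each gene the brightest probe set, by the mean of the 6 arrays, stands for the gene, and any others served as a check.

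Choroid plexuses were dissected from Sprague-Dawley rats at embryonic day 19 (E19), at postnatal day 2 (P2) and in adulthood, and RNA was hybridized to Affymetrix Rat Genome 230 2.0 arrays. No genetic change or experimental treatment is described for any stage. Fetuses were taken from females under isoflurane anaesthesia, by the study's account. Each stage was measured in 2 separate pools, each a batch of 6 to 10 plexuses, so that a value is a mean over several animals and says nothing of the spread between single animals. By the study's account, adult pools came from fewer animals than those of the developing stages, so that pool size differs with stage. The adults were males by the study's account, whereas the sex of fetuses and pups and the age of the adults are not given in the sources used here, so that stage and sex may differ together. Values are MAS5 signal intensities in arbitrary units, on a scale where the study took 100 units as the background. A probe set is called here when its adjusted p in limma is under 0.05.

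IGFs are small secreted proteins that resemble insulin. Igf1r is the tyrosine kinase receptor through which both ligands drive growth and survival, whereas Igf2r, the cation-independent mannose 6-phosphate receptor, takes up IGF2 and delivers it to lysosomes. Binding proteins hold the ligands in extracellular fluid and set how much of them reaches a receptor. The choroid plexus is known as a site of Igf2 expression in the brain, and its epithelium secretes IGF2 and IGFBP2 into the cerebrospinal fluid.

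The pools carried markers of the plexus epithelium. Of 11 epithelium markers on the array, 10 had a pool at or above 100 units at every stage, and transthyretin (Ttr) lay between 10837 and 14847 units in the 6 pools. The potassium channel gene Kcnj13 was under 100 units on all arrays. Summed epithelium marker intensity was 81356 and 82631 units in E19 pools, 89554 and 84717 in P2 pools, and 91962 and 87204 in adult pools. Lists of other cell types differed by stage. Summed stroma markers (12 genes) were 30328 and 29814 units in E19 pools, 36429 and 32582 in P2 pools, and 16603 and 17904 in adult pools. Summed endothelium markers (11 genes) were 11603 and 11024 units in E19 pools, 11126 and 10147 in P2 pools, and 2116 and 2139 in adult pools. Summed mural markers (9 genes) were 4179 and 3941 units in E19 pools, 4294 and 4065 in P2 pools, and 947 and 959 in adult pools. The 10 meninges markers summed to 20391 and 20798 units in E19 pools, 22582 and 20522 in P2 pools, and 24362 and 23482 in adult pools. In the adult pools Ptgds alone read 20262 and 19292 units, and 7 of the 10 were under 100 units in both. How much meningeal tissue a pool held was not tested. Summed glia markers (9 genes) were 1459 and 1513 units in E19 pools, 1567 and 1125 in P2 pools, and 3619 and 1862 in adult pools. Slc1a3 alone read 1197 and 1198 units in E19 pools, 1132 and 812 in P2 pools, and 280 and 202 in adult pools. Most other tested glia markers went the other way, which the sums hide for adult pool 2. Mbp read 1989 and 656 units in adult pools and 5.76 to 77.0 in developing ones. Of 5 tested glia markers, 4 were called lower and 1 higher at E19 than in the adult, and 3 lower and 1 higher at P2. Of 8 neuron markers, 8 were under 100 units in both E19 pools, 5 in both P2 pools and 7 in both adult pools. Stmn2 was the brightest of them at P2 (198 and 191 units) and Snap25 in the adult (243 and 163 units). Medians of all probe sets were 124.5 and 125.1 units for E19, 125.6 and 120.4 for P2 and 106.1 and 100.1 for the adult, so that both adult arrays lay below all 4 others.

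**Figure D1:**
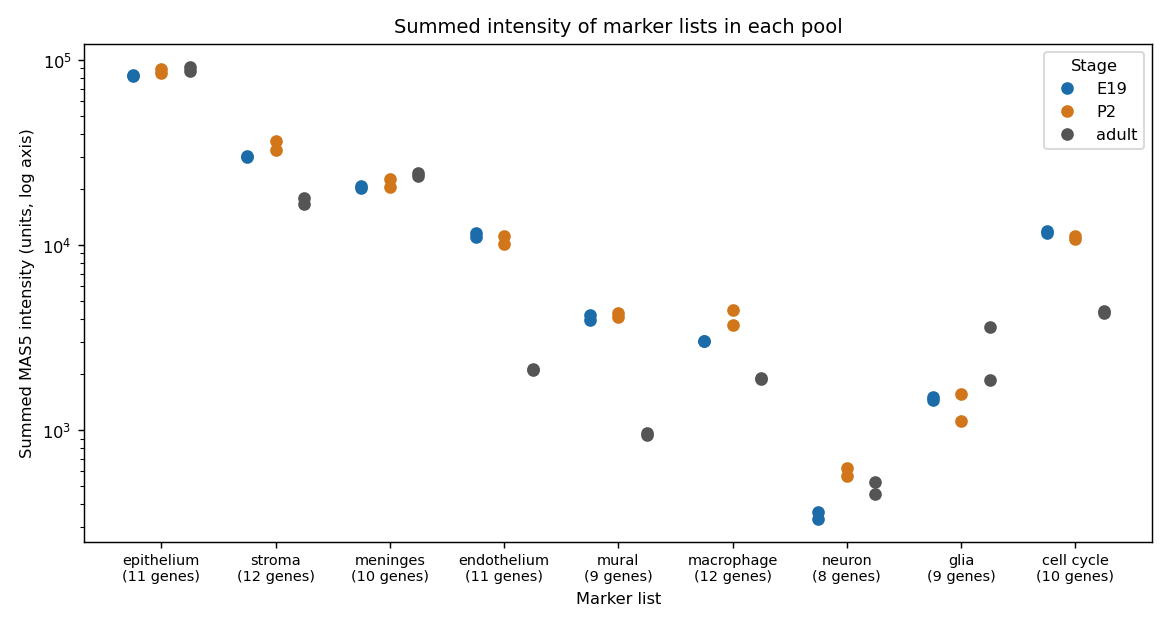
Summed MAS5 intensity of each marker list (log axis, arbitrary units) in the 2 pools of E19, P2 and adult, with 1 point per pool. Epithelium sums lay between 81356 and 91962 units in every pool, although single epithelium markers moved in both directions. Endothelium sums were 10147 to 11603 units in the 4 developing pools and 2116 and 2139 units in the adult pools.

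Against the adult, 4 of the 10 genes were higher at E19 (Igf1, Igfbp3, Igfbp4 and Igfbp7), 3 were lower (Igf2, Igf2r and Igfbp6) and 3 did not pass the test (Igf1r, Igfbp2 and Igfbp5). At P2 the same 4 genes were higher, Igf2 and Igf2r were lower, and 4 did not pass. Over all 17808 tested probe sets, 30.4% were called higher and 24.2% lower at E19 versus adult, and 27.4% higher and 21.8% lower at P2 versus adult. The share of the members called was thus near that background in each direction. With arrays centred on their medians, 46.7% of all calls at E19 and 44.6% of those at P2 were in the higher direction, whereas 55.7% and 55.6% were so on the deposited scale. The median log2 fold change of the 10 genes was -0.01 at E19 and -0.09 at P2, against 0.05 and 0.04 over all tested probe sets. Both comparisons share the adult arrays. In pooled tissue, fewer cells of a type and less RNA per cell cannot be told apart. Between P2 and E19, 1 of the 10 genes, Igf1, was called higher and 0 lower in limma, where 3.62% of all probe sets were called higher and 3.5% lower. At an unadjusted p under 0.05, 4 of the 10 were higher and 1 lower in that comparison, where 14.3% of all probe sets were higher and 13.5% lower.

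**Figure D2:**
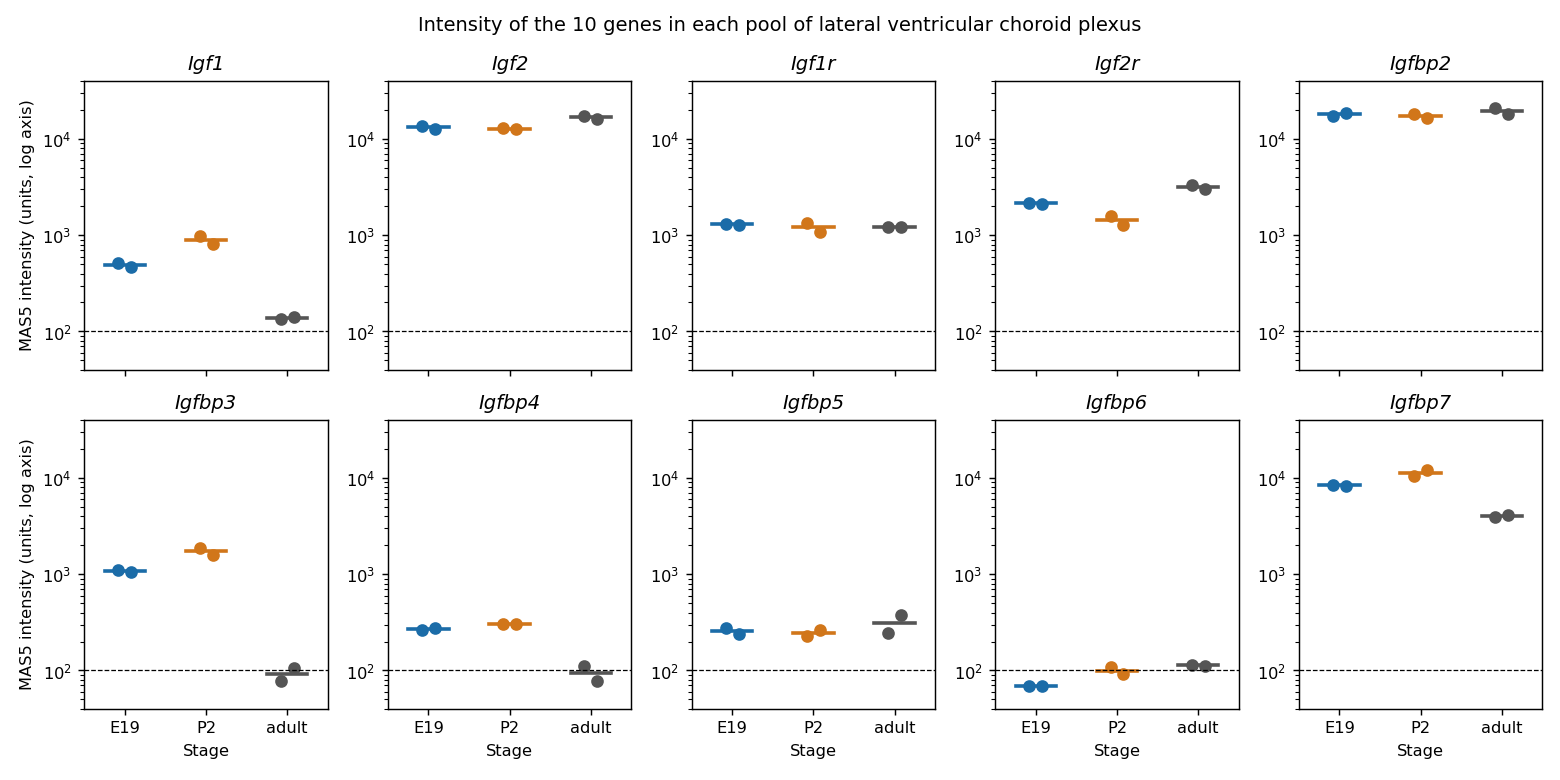
MAS5 intensity (log axis, arbitrary units) of the 10 genes, with 1 point per pool, a bar at the stage mean and a dashed line at 100 units. Igf1, Igfbp3, Igfbp4 and Igfbp7 lay higher in all 4 developing pools than in both adult pools. Igf2, Igf2r and Igfbp6 lay lower in all 4, Igfbp6 with values close to or under 100 units. How many of all probe sets separate in this way was not counted.

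Igf1 encodes the ligand that mediates much of the growth-promoting action of growth hormone and is also made locally in many tissues. Its intensity was 517 and 468 units in E19 pools, 972 and 820 in P2 pools, and 135 and 141 in adult pools. The 3 stages did not overlap, P2 being the highest and the adult the lowest. Igf1 was 3.57-fold higher at E19 than in the adult (95% interval 2.88 to 4.41; limma, adjusted p = 0.000359) and 6.47-fold higher at P2 (5.23 to 8.0; adjusted p = 0.000184). P2 exceeded E19 by 1.81-fold (1.47 to 2.24; limma, adjusted p = 0.0269). That last call was lost when any one of the 4 E19 and P2 pools was left out, with log2 fold changes of 0.74 to 0.98 and adjusted p up to 0.151. This was not particular to Igf1, since with 1 of these 4 pools left out at most 2 probe sets of the whole array were called higher and 4 lower between P2 and E19. Both other probe sets of Igf1 were also higher at both stages, but their adult levels were too dim for more than a bound. Probe set 1388469_at read 299 and 240 units in E19 pools, 495 and 496 in P2 pools, and 69.3 and 56.0 in adult pools, where both pools were under 100 units, so that its fold changes are bounds of at least 2.68-fold at E19 and at least 4.96-fold at P2. Probe set 1382599_at was dimmer, with 112 and 110 units in E19 pools, 157 and 209 in P2 pools, and 36.5 and 20.4 in adult pools, which bounds its change to at least 1.11-fold at E19 and at least 1.81-fold at P2. With values under 100 units set to 100, its log2 fold change at E19 was 0.15 and no longer called (limma, adjusted p = 0.404), and that at P2 was 0.86 (adjusted p = 0.00484). For P2 versus E19, 1388469_at passed with a log2 fold change of 0.89 (limma, adjusted p = 0.0427). Probe set 1382599_at did not pass there, with 0.70 (adjusted p = 0.207).

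Igf2, the imprinted fetal growth factor gene, was bright at every stage. Its probe set 1367571_a_at read 13696 and 12819 units in E19 pools, 12865 and 12573 in P2 pools, and 17207 and 16266 in adult pools. Both adult pools lay above all 4 developing pools, and the E19 and P2 pools overlapped. The log2 fold change was -0.34 at E19 (95% interval -0.56 to -0.11; limma, adjusted p = 0.025) and -0.40 at P2 (-0.62 to -0.17; adjusted p = 0.017), that is, levels 1.26-fold and 1.32-fold below the adult. The log2 fold change moved little when 1 pool was left out, running from -0.38 to -0.29 at E19 and from -0.44 to -0.35 at P2, but its adjusted p did not always stay under 0.05. The E19 call was lost without any one of the 2 E19 and 2 adult pools (adjusted p 0.053 to 0.134), and the P2 call without either P2 pool or without adult pool 1 (adjusted p 0.0538 to 0.0666). With no filter on dim probe sets neither was called (adjusted p = 0.0989 and 0.0782), and quantile normalization ended the P2 call (adjusted p = 0.0509). P2 and E19 differed by -0.06 on the log2 scale (95% interval -0.28 to 0.16), which bounds any change of Igf2 between these stages. The other 3 probe sets of Igf2 stayed between 1.66 and 40.6 units in all pools and carry no measurement, and a mean that takes them in gave -1.19 at E19 and -1.56 at P2. The highest intensity on any array was between 19118 and 24990 units, so that Igf2 lay close to the top of the range, and whether such bright probe sets still respond linearly was not tested.

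Of the receptors, Igf2r was lower in the developing plexus. It read 2175 and 2120 units in E19 pools, 1597 and 1262 in P2 pools, and 3318 and 3032 in adult pools. All 4 developing pools lay below both adult pools, and both P2 pools lay below both E19 pools. The log2 fold change was -0.56 at E19 (95% interval -0.91 to -0.21; limma, adjusted p = 0.0206) and -1.16 at P2 (-1.51 to -0.81; adjusted p = 0.00249). The second probe set of Igf2r, 1386872_at, read 1950 and 1755 units in E19 pools, 1116 and 892 in P2 pools, and 2676 and 2845 in adult pools. It gave -0.58 at E19 (adjusted p = 0.0192) and -1.47 at P2 (adjusted p = 0.00127). P2 versus E19 gave -0.60 on the first probe set (limma, adjusted p = 0.0676) and -0.89 on the second (adjusted p = 0.0342), so that the lower level at P2 passed the test on 1 of 2 probe sets. The E19 call of the first probe set was lost without either E19 pool or without adult pool 1 (log2 fold changes -0.58 to -0.50, adjusted p 0.0795 to 0.0929) and with no filter on dim probe sets (adjusted p = 0.0784). That of the second was lost without either E19 pool or without adult pool 2 (log2 fold changes -0.65 to -0.50, adjusted p 0.0556 to 0.0994) and with no filter (adjusted p = 0.0749). The P2 call of the first probe set was kept whichever pool was left out.

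Igf1r gave different answers on its 2 probe sets. The brighter, 1392492_at, read 1319 and 1284 units in E19 pools, 1329 and 1085 in P2 pools, and 1204 and 1220 in adult pools. P2 overlapped both other stages there, and the log2 fold changes of 0.10 at E19 (95% interval -0.20 to 0.41) and -0.01 at P2 (-0.32 to 0.29) did not pass the test (limma, adjusted p = 0.505 and 0.937). Probe set 1368123_at read 420 and 408 units in E19 pools, 538 and 341 in P2 pools, and 888 and 926 in adult pools, with both adult pools above all others. Its log2 fold changes were -1.13 at E19 (limma, adjusted p = 0.00997) and -1.08 at P2, with an adjusted p of 0.0132 there. The direction of Igf1r between the developing and the adult plexus is therefore not settled by these arrays, since the interval of the brighter probe set does not reach the change of the other. The calls on 1368123_at were lost without E19 pool 2 at E19 (-1.11, adjusted p = 0.0526), and at P2 without adult pool 2 (-1.05, adjusted p = 0.054) and with no filter (adjusted p = 0.0573).

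**Figure D3:**
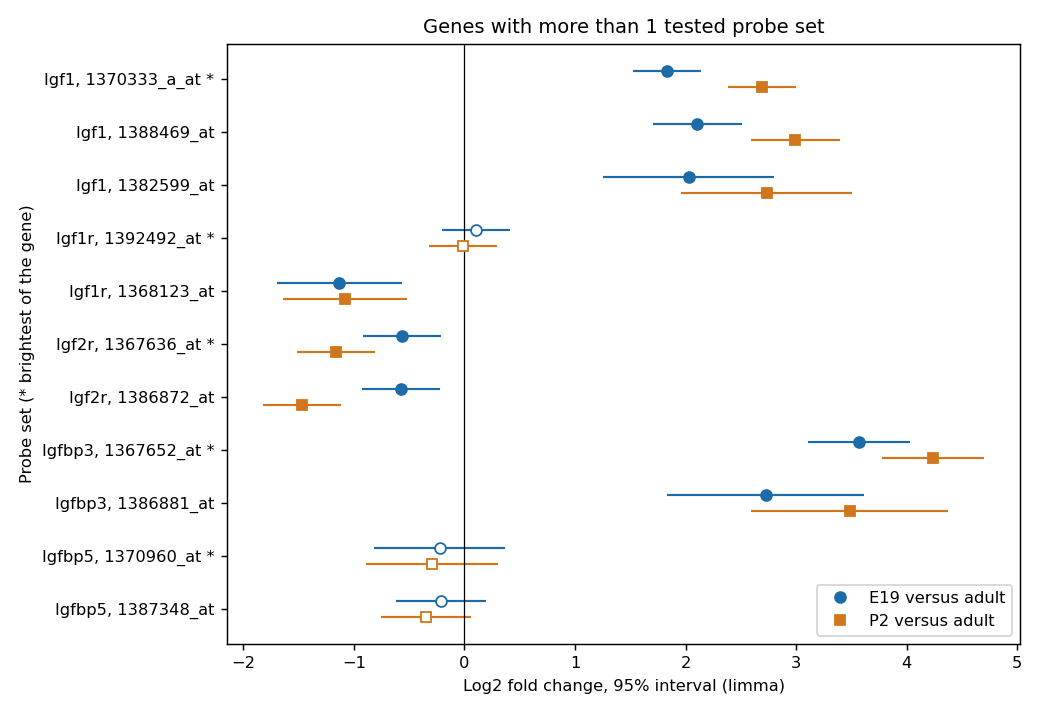
Log2 fold changes with 95% intervals (limma) of the genes with more than 1 tested probe set, for E19 and P2 versus adult. Filled symbols passed an adjusted p of 0.05 and an asterisk marks the brightest probe set. The tested probe sets of Igf1 and Igfbp3 lay above 0 and those of Igf2r and Igfbp5 below it, whereas those of Igf1r were at 0.10 and -1.13 at E19.

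Among the binding proteins, Igfbp3 changed most. IGFBP3 carries most of the IGF in the circulation, in a ternary complex with the acid-labile subunit. Igfbp3 read 1097 and 1064 units in E19 pools, 1874 and 1579 in P2 pools, and 77.7 and 107 in adult pools, where 1 of the 2 pools was under 100 units. No stages overlapped. Igfbp3 was 11.9-fold higher at E19 than in the adult (95% interval 8.60 to 16.3; limma, adjusted p = 0.000191) and 18.9-fold higher at P2 (13.7 to 26.0; adjusted p = 0.000169). Between P2 and E19 the log2 fold change of 0.67 did not pass (limma, adjusted p = 0.0914). The second probe set, 1386881_at, read 645 and 515 units in E19 pools, 1226 and 779 in P2 pools, and 65.8 and 116 in adult pools, with fold changes of 6.60 at E19 and 11.2 at P2.

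Igfbp4 encodes a binding protein that inhibits IGF action until proteases cut it. It read 263 and 279 units in E19 pools, 305 and 306 in P2 pools, and 112 and 77.2 in adult pools. The developing pools did not overlap the adult ones. Igfbp4 was 2.91-fold higher at E19 (95% interval 2.09 to 4.06; limma, adjusted p = 0.00215) and 3.28-fold higher at P2 (2.35 to 4.57; adjusted p = 0.00195). Igfbp7, whose product binds IGFs only weakly and is known from vessel walls, was bright throughout. Its intensity was 8527 and 8216 units in E19 pools, 10458 and 12033 in P2 pools, and 3961 and 4130 in adult pools, and the 3 stages did not overlap. Igfbp7 was 2.07-fold higher at E19 (1.72 to 2.48; limma, adjusted p = 0.00111) and 2.77-fold higher at P2 (2.31 to 3.33; adjusted p = 0.000557). P2 versus E19 gave a log2 fold change of 0.42 (limma, adjusted p = 0.0755).

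Igf1, Igfbp3, Igfbp4 and Igfbp7 thus moved in the same direction, and most markers of the stroma and vessels did so too. Of the tested markers, 9 of 12 for stroma, 10 of 11 for endothelium and 5 of 8 for mural cells were higher at E19 than in the adult, and 9, 10 and 6 were higher at P2. Of 7 tested meningeal markers, 6 were higher and 1 lower at E19, and 5 higher and 1 lower at P2. Lower calls were made for 3 stroma and 1 mural marker at E19 and for 1 stroma marker at P2. The part of these cell types in the 4 changes was not tested. Cell cycle genes moved too, with 10 of 10 higher at E19 and 9 of 10 at P2. Macrophage markers had 3 of 10 higher and 1 lower at E19, and 8 higher and 0 lower at P2. The 10 tested epithelium markers had 4 higher and 3 lower at E19, and 3 higher and 3 lower at P2. Among all tested probe sets, 30.4% were called higher and 24.2% lower at E19, and 27.4% higher and 21.8% lower at P2. The share of macrophage markers called higher at E19 was thus not above that background.

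Igfbp2, Igfbp5 and Igfbp6 did not share this course. Igfbp2, the binding protein known from cerebrospinal fluid, read 17421 and 18703 units in E19 pools, 18142 and 16633 in P2 pools, and 21065 and 18207 in adult pools. The stages overlapped. The log2 fold change was -0.12 at E19 (95% interval -0.41 to 0.17; limma, adjusted p = 0.418) and -0.17 at P2 (-0.46 to 0.12; adjusted p = 0.255), and like Igf2 this probe set lay near the top of the arrays' range. Igfbp5, whose product also binds extracellular matrix, read 279 and 239 units in E19 pools, 228 and 266 in P2 pools, and 242 and 375 in adult pools. Of the 4 developing pools, 2 lay between the adult pools and 2 below them, and the log2 fold changes of -0.23 at E19 (95% interval -0.82 to 0.37) and -0.29 at P2 (-0.89 to 0.30) did not pass the test (limma, adjusted p = 0.45 and 0.339). They ran between -0.61 and 0.09 when either adult pool was left out, with a call at P2 (adjusted p = 0.048) without adult pool 1. Probe set 1387348_at of Igfbp5 read 142 and 152 units in E19 pools, 117 and 153 in P2 pools, and 159 and 183 in adult pools and did not pass either, and 3 further probe sets stayed between 1.66 and 46.4 units.

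Igfbp6 encodes a binding protein with a preference for IGF2. It read 68.5 and 69.7 units in E19 pools, 108 and 91.9 in P2 pools, and 115 and 112 in adult pools. Both E19 pools were under 100 units, so that the adult level was at least 1.14-fold that at E19. The fitted log2 fold change was -0.72 (limma, adjusted p = 0.00402). With values under 100 units set to 100 it became -0.18 and was no longer called (adjusted p = 0.103). At P2 the log2 fold change was -0.19 (95% interval -0.46 to 0.08; limma, adjusted p = 0.188). Its probe set name ends in _s_at, Affymetrix' mark for probes that can match transcripts of more than 1 gene, and its second probe set stayed between 1.40 and 27.1 units.

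**Figure D4:**
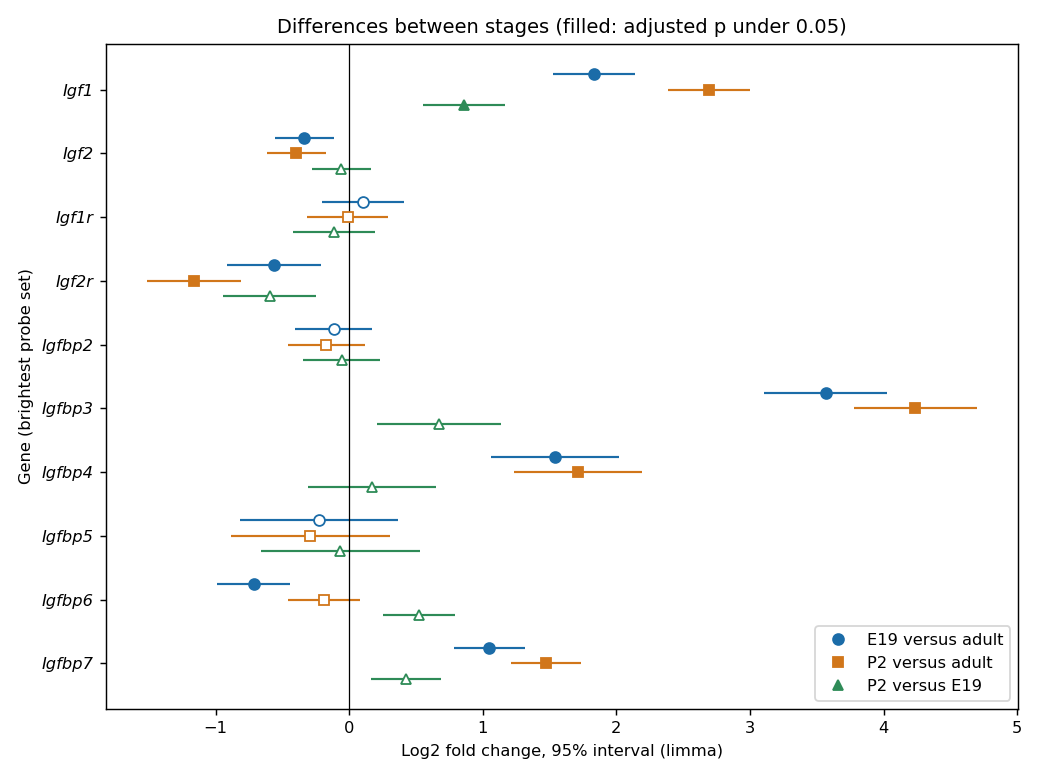
Log2 fold changes with 95% intervals (limma) of the 10 genes, with circles for E19 against adult, squares for P2 against adult and triangles for P2 against E19. Filled symbols passed an adjusted p of 0.05. Igfbp3 stands farthest from 0, at 3.57 and 4.24 versus adult, and Igf1 alone is filled for P2 versus E19, at 0.86.

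The promoters of the 4 genes that were higher in the developing plexus, and of Igf2r, which was lower, are shown because these 5 carry the clearest changes. Sequences are those of RefSeq on the build GRCr8, from 250 bases before to 50 bases after the annotated start, 5′ to 3′ on the strand of the gene. All 10 genes matched an entry, Igf2 with a pair of starts. Capitals mark the matches of 4 motifs on either strand. The TATA box was searched as TATAAA. The CCAAT box was searched by its name. The GC box was searched as GGGCGG. The E box was searched as CACGTG. Matches of different motifs did not overlap.
Igf1 promoter, chr7:24172282-24172581, plus strand: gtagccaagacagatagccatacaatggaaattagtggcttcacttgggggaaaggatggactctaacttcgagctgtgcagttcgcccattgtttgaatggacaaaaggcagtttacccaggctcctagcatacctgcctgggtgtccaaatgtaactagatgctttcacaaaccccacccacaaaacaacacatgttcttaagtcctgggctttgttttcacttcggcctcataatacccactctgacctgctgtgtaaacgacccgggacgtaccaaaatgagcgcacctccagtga
Igfbp3 promoter, chr14:86277895-86278194, minus strand: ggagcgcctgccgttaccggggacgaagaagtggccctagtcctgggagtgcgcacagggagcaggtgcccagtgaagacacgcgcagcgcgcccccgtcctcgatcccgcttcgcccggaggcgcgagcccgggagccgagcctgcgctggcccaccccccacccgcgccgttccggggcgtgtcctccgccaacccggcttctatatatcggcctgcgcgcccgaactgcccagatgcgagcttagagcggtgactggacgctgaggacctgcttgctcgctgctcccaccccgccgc
Igfbp4 promoter, chr10:84491221-84491520, plus strand: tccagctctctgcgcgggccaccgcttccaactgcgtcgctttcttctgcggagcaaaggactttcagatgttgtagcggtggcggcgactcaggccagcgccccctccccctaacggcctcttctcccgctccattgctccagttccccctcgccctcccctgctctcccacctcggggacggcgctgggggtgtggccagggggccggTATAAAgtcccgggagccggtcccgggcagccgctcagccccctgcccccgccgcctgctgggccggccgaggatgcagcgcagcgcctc
Igfbp7 promoter, chr14:31091486-31091785, plus strand: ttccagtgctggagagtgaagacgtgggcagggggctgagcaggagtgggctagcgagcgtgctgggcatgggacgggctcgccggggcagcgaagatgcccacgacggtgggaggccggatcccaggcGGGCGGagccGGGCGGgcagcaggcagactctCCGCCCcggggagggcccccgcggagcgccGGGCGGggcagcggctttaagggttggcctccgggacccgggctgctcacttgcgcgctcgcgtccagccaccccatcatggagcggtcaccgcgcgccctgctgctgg
Igf2r promoter, chr1:50526628-50526927, plus strand: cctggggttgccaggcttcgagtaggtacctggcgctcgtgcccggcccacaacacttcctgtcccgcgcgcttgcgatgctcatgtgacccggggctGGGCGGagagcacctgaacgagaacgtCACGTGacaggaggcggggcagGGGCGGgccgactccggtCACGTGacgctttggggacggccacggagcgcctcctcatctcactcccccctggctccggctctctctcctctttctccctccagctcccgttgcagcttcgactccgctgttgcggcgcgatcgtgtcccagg

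The windows of Igf1 and Igfbp3 held none of these words. That of Igfbp4 held 1 TATAAA, from base -40 to base -35 relative to the start, that of Igfbp7 4 GC boxes, and that of Igf2r 2 E boxes and 2 GC boxes. Of the 10 genes, TATAAA was present in a window of 1, CCAAT of 0, the GC box of 5 and the E box of 3. Of 33469 promoters of the same length, 14.2% held TATAAA, 37.5% CCAAT, 33.1% a GC box and 6.42% an E box. These shares count single promoters, whereas the members were counted as genes, Igf2 with a pair of windows. The 4 genes that were higher in the developing plexus had no word in common. GC content was 48.3% in the window of Igf1 and between 68.0% and 74.3% in the other 4 shown. In the RefSeq annotation Igfbp2 and Igfbp5 are direct neighbours on chromosome 9, and neither passed the test at either stage. Igfbp3 and Igfbp1 are direct neighbours on chromosome 14, where Igfbp3 was higher at both stages and Igfbp1 was under 100 units in all pools.

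The genes around the IGF system were read from a list of 48, of which 39 were on the array with a single-gene probe set and 33 passed the filter. At E19, 14 were higher than in the adult, 4 were lower and 15 did not pass. At P2, 12 were higher, 4 lower and 17 did not pass. The median log2 fold change was 0.11 at E19 and 0.07 at P2, against 0.05 and 0.04 over all tested probe sets, of which 30.4% and 27.4% were called higher and 24.2% and 21.8% lower. Of the 7 tested genes on ligand availability, 6 were higher at E19 and 1 lower, and 5 were higher at P2. Of 7 adaptors, 5 were higher and 0 lower at both stages. Of 16 genes of the PI3K and Akt branch, 3 were higher and 2 lower at E19, and 2 higher and 3 lower at P2, and both tested kinases of the Ras and MAPK branch, Map2k1 and Map2k2, did not pass.

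H19, the imprinted non-coding RNA gene that neighbours Igf2 on chromosome 1, read 1638 and 1379 units in E19 pools, 816 and 941 in P2 pools, and 62.6 and 42.7 in adult pools. Both adult pools were under 100 units, so that the level of H19 was raised at least 15.0-fold at E19 (limma, adjusted p = 0.000137) and at least 8.76-fold at P2 (adjusted p = 0.000263). H19 thus lay far above the adult at the stages where Igf2 lay slightly below it. The IGF2 mRNA-binding protein genes were high in the developing plexus as well. Igf2bp2 read 2268 and 2102 units in E19 pools, 1460 and 1223 in P2 pools, and 150 and 172 in adult pools, a 13.6-fold and an 8.32-fold higher level (limma, adjusted p = 8.86e-05 and 0.000172). These sizes are those of the brightest probe set, with log2 fold changes of 3.76 and 3.06, and the mean over the probe sets of Igf2bp2 gave 2.70 and 1.81. Igf2bp3 read 407 and 499 units in E19 pools, 174 and 177 in P2 pools, and 22.0 and 11.3 in adult pools, at least 4.51-fold and at least 1.76-fold higher (limma, adjusted p = 0.000377 and 0.00121). Igf2bp1 read 176 and 129 units in E19 pools, 56.7 and 68.4 in P2 pools, and 34.0 and 32.7 in adult pools, so that only E19 lay above 100 units, by a bound of 1.51-fold (limma, adjusted p = 0.000668 versus adult). Its call at P2 rests on pools under 100 units and gives no fold. Stc1, whose stanniocalcin product inhibits proteases that cut IGFBP4, read 1801 and 1872 units in E19 pools, 1424 and 1766 in P2 pools, and 585 and 724 in adult pools (log2 fold changes 1.5 and 1.29, or 1.97 at P2 as the mean of its probe sets). Htra1, a secreted protease gene, was lower at E19, with 97.9 and 69.8 units in E19 pools, 204 and 154 in P2 pools, and 169 and 218 in adult pools (E19 versus adult at least 1.92-fold; limma, adjusted p = 0.0107, or 0.0505 without E19 pool 2, where the log2 fold change was -0.97 in place of -1.21).

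The adaptor Grb10, an imprinted inhibitor of insulin and IGF receptor signalling, read 4232 and 3892 units in E19 pools, 2172 and 2052 in P2 pools, and 196 and 94.4 in adult pools. Its level was 29.8 times that of the adult at E19 (limma, adjusted p = 0.00042) and 15.5 times at P2 (adjusted p = 0.000976). These ratios rest on adult pools that differed 2.08-fold, 1 of them under 100 units, and on the brightest probe set, whose log2 fold changes were 4.90 and 3.96. The mean over all probe sets of Grb10 gave 2.94 at E19 and 1.40 at P2 (limma, adjusted p = 0.00285 and 0.0306), and that over the probe sets at 100 units or more gave 3.56 and 2.44. Grb14, a related inhibitor, read 278 and 247 units in E19 pools, 259 and 231 in P2 pools, and 79.4 and 92.7 in adult pools, at least 2.62-fold and at least 2.45-fold higher. The docking protein gene Gab1 was higher at both stages (log2 fold changes 1.30 and 1.19), as was the receptor substrate gene Irs2 (0.89 and 0.80), while Irs1 was under 100 units in all pools. Shc1 followed with 0.93 at E19 and 1.05 at P2, and its calls were lost without E19 pool 1 (0.84, adjusted p = 0.0694), without P2 pool 2 (0.94, adjusted p = 0.0558) and, at E19, with no filter (adjusted p = 0.0548).

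The insulin receptor gene Insr ran the other way. It read 191 and 222 units in E19 pools, 266 and 162 in P2 pools, and 582 and 695 in adult pools. Both adult pools lay above all 4 developing pools, with log2 fold changes of -1.63 at E19 and -1.62 at P2 (limma, adjusted p = 0.00499 and 0.00604). The mean over its probe sets was -0.93 at E19. The related Insrr was under 100 units in all pools. Akt2, a kinase of insulin signalling, was also lower, by -1.14 at E19 and -0.94 at P2 (log2, brightest probe set; limma, adjusted p = 0.000846 and 0.00191). The mean over its probe sets was no longer called (-0.60 and -0.53; adjusted p = 0.0715 and 0.105). Pik3r1, the regulatory subunit of PI3-kinase, was higher at E19 than at the adult stage (log2 fold change 1.40; limma, adjusted p = 0.000573) and not called at P2 (0.21; adjusted p = 0.17), with 423 and 437 units in E19 pools, 176 and 201 in P2 pools, and 171 and 155 in adult pools. P2 differed from E19 itself by a log2 fold change of -1.19 (limma, adjusted p = 0.019), and by -1.29 to -1.10 with 1 pool left out, where without either E19 or either P2 pool it was not called (adjusted p up to 0.121).

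**Figure D5:**
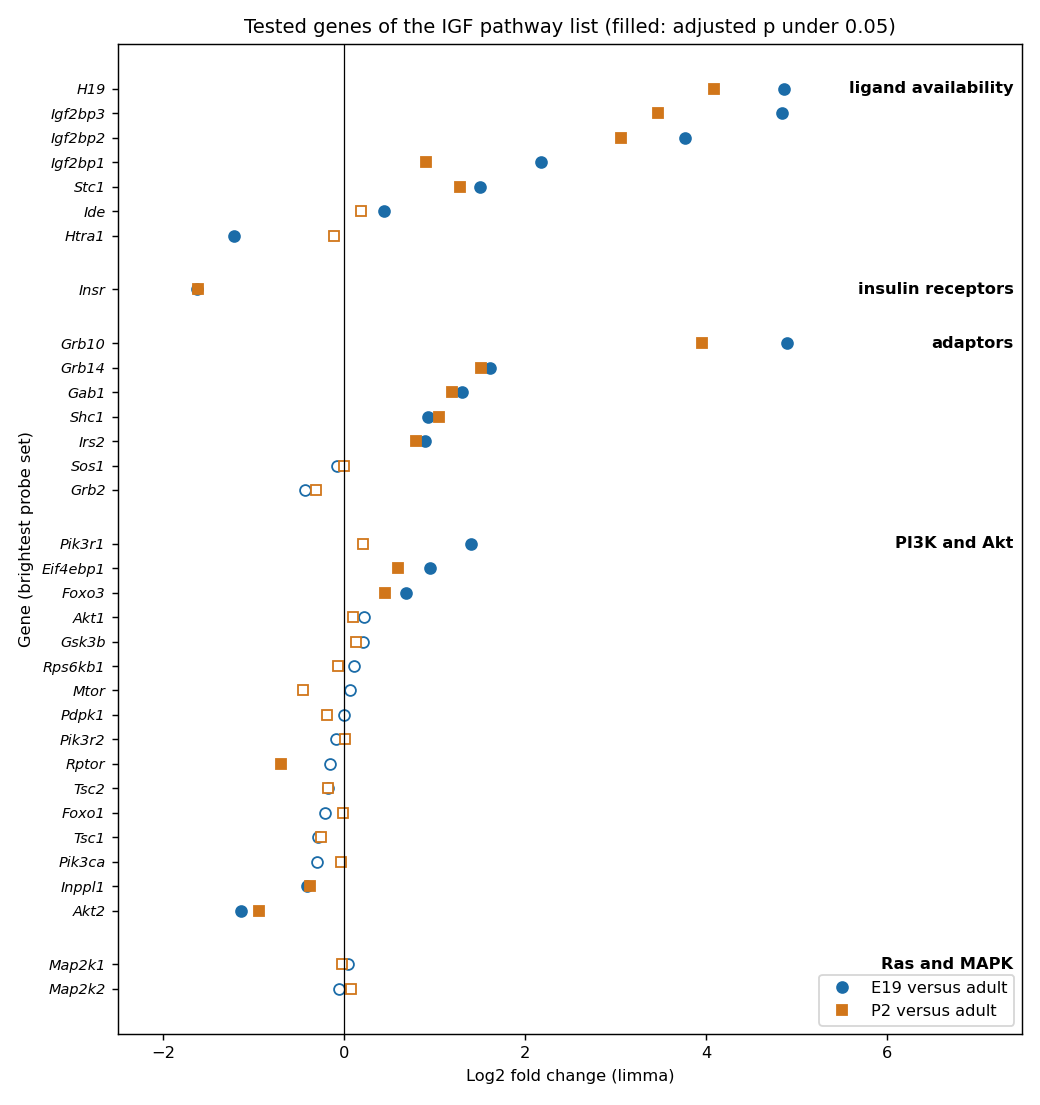
Log2 fold changes (limma) of the 33 tested genes of the IGF pathway list for E19 and P2 versus adult, grouped by role, with filled symbols for an adjusted p under 0.05. Each point is the fitted value of the brightest probe set. H19, Igf2bp3, Igf2bp2 and Grb10 lay between 3.06 and 4.90, and Insr lay at -1.63 and -1.62. Both adult pools of H19 and Igf2bp3 were under 100 units, so that only bounds hold for the sizes of their changes. The mean over all probe sets of Grb10 was smaller, at 2.94 for E19 and 1.40 for P2.

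Between P2 and E19, limma called 4 of the 33 genes lower (Igf2bp1, Igf2bp2, Pik3r1 and Rptor) and 0 higher. Of all probe sets, 3.5% were called lower and 3.62% higher there. At an unadjusted p under 0.05, 9 of the 33 were lower and 1 higher, where 13.5% of all probe sets were lower and 14.3% higher. Of the genes without tested values, Igfbp1 and Igfals, which encode a hepatic binding protein and the acid-labile subunit, were under 100 units in all pools, as were Pappa2 and Stc2.

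The genes whose course over the 6 arrays was most like that of Igf2, by the Euclidean distance between log2 values centred on each gene's own mean, were Trim2 (distance 0.05), Golga5 (0.06), Tp53rkb (0.08), Cox7b (0.08) and Ppp2r5e (0.09), out of 10333 other tested genes. All 5 lay slightly lower in the developing plexus than in the adult, by log2 fold changes of -0.34 to -0.39 at E19 and -0.35 to -0.41 at P2. None of them belongs to the IGF pathway list, and a small distance here means only a shared small step between the developing and the adult pools.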

How the data were processed

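RNA of 6 pools of rat lateral ventricular choroid plexus, 2 at each of E19, P2 and adult, was hybridized to Affymetrix Rat Genome 230 2.0 arrays. The deposited values are linear signal intensity per probe set, made by the authors with the MAS5 algorithm in Affymetrix Expression Console (versions not given in the sources used here). MAS5 scales each array to a common trimmed mean, and fold changes are relative to it. Centring each array on its median instead moved the median of all tested probe sets by -0.11 and -0.12 (log2, E19 and P2 versus adult).

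Of 31099 probe sets, 57 controls and all without a stage mean of 100 units or more were left out, and 17808 were tested. The log2 intensities of all 6 arrays entered 1 limma fit (version 3.58.1, R 4.3.3) with a mean for each stage, 3 residual degrees of freedom and 2.15 from the prior. Benjamini-Hochberg adjustment ran over every probe set tested, and intervals are 95% intervals of that fit. The procedure was also run on simulated data with planted changes. Noise there was drawn independently for each probe set, without pool or array effects, so that the run does not measure the error rate of the calls here. The number of pools limits the precision of arrays, and since nothing says which litters a pool came from, p values measure the spread between pools only. Where both pools of one of the compared stages were under 100 units, the fold is a bound, the geometric mean of the brighter stage over 100 units. The platform annotation gave 20832 probe sets with 1 gene, 436 with several and 9831 with none.

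All 10 members were named. Of the pathway list, genes called in at least 1 comparison could be named, with values for those of at least 1 on the log2 scale and for insulin receptors and substrates. Map2k1, Map2k2, Rptor and the list's genes under 100 units were added after their values were seen. Marker genes and the 5 genes nearest Igf2 were named too. Members, lists and rules were chosen with earlier results of these data known. The alternatives concerned the filter, array scaling, a floor on low values, the stages fitted, the variance estimate, a block for the pool number, the choice of probe sets, and each array left out in turn. Genes of the lists without a single-gene probe set were not analysed here.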

Additional observations from a re-analysis of the deposited data

Results flagged for a closer look

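The differences from the adult at P2 and at E19 were set against each other as P2 versus E19. Both share the adult arrays. That difference passed limma's test for 1 member, Igf1, at 0.86 on the log2 scale (adjusted p = 0.0269), higher in 2 of 2 P2 pools than in both E19 pools, and on a second Igf1 probe set, 1388469_at, with 0.89 (adjusted p = 0.0427). The third Igf1 probe set, 1382599_at, did not pass, with 0.70 (adjusted p = 0.207). The difference passed on 1 of 2 probe sets of Igf2r, 1386872_at, with -0.89 (adjusted p = 0.0342). In the pathway list it passed for Igf2bp1 with -1.28 (adjusted p = 0.0274), Igf2bp2 with -0.71 (adjusted p = 0.0455), Pik3r1 with -1.19 (adjusted p = 0.019) and Rptor, the Raptor subunit of mTOR complex 1, with -0.54 (adjusted p = 0.0475). Each of these 7 calls was lost when any one of the 4 E19 and P2 pools was left out, as were nearly all calls of the array. Over all probe sets, limma then called 2 higher and 4 lower without P2 pool 1 and 0 in either direction without each of the other 3, where 1668 to 1966 were higher and 1493 to 1903 lower at an unadjusted p under 0.05. The losses without an E19 or P2 pool therefore say nothing particular about these genes. The call of Igf2bp2 was also lost without either adult pool, and those of Rptor and 1386872_at without adult pool 2. The other calls were kept there. These log2 fold changes do not depend on the adult arrays and stayed at -0.71, -0.54 and -0.89. With 1 E19 or P2 pool left out, log2 fold changes ran from 0.74 to 0.98 for Igf1, 0.73 to 1.05 for 1388469_at and -1.05 to -0.73 for 1386872_at. They ran from -1.50 to -1.05 for Igf2bp1, -0.84 to -0.58 for Igf2bp2, -1.29 to -1.10 for Pik3r1 and -0.58 to -0.49 for Rptor. Groups of 2 pools allow no test for outliers.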

How the results depend on the processing

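The higher levels of Igf1, Igfbp3, Igfbp4 and Igfbp7 in the developing plexus were called under all 16 alternatives at both stages. Of 723 member fold changes recomputed under alternatives, 644 kept direction and call, 43 lost the call, 16 gained one and 20 changed sign. Several alternatives leave the fold change itself as it was and alter only the test. Differences called in neither fit also count as kept, so that the 644 is no measure of robustness. The members called numbered 7 at E19 and 6 at P2 and 5 to 8 and 5 to 7 under the alternatives. For P2 versus E19 the count of 1 became 0 with no filter, 3 with a filter at 200 units, 2 with quantile normalization, 4 with values under 100 units set to 100, 4 with an intensity trend, 0 with the mean of all probe sets of a gene, 3 with the mean of those at 100 units (chosen after seeing the data) and 0 to 1 with 1 pool left out. With the pool number as a replicate block it became 0, with 7 and 6 called against the adult. Same-numbered pools did not deviate together (r -0.06, -0.04 and 0.01). All sign changes were in differences that were small or rested on dim probe sets. Igf1r at E19 became -0.0065 with arrays centred and -0.51 with either mean of its probe sets; at P2 it became 0.0011 with quantile normalization and ran from -0.16 to 0.13 with 1 pool left out, and from -0.26 to 0.030 for P2 versus E19 (probe set 1368123_at -0.28 to 0.38). Quantile normalization turned Igfbp2 to 0.0057 at E19, 0.016 at P2 and 0.011 for P2 versus E19, and Igf2 to 0.0060 for P2 versus E19. With 1 pool left out Igfbp2 ran from -0.12 to 0.0073 for P2 versus E19, and Igfbp5 from -0.54 to 0.090 at E19, -0.61 to 0.023 at P2 and -0.18 to 0.045 for P2 versus E19 (probe set 1387348_at -0.32 to 0.062); the mean of its probe sets gave 0.11. The mean over its probe sets, the second of them dim, turned Igfbp6 to 0.29 at E19 and 0.32 at P2. Causes were not tested. Scaling moved the share of all calls that were higher to 46.7% at E19 and 44.6% at P2 with arrays centred and 49.2% and 48.7% with quantile normalization, against 55.7% and 55.6%. A stage left with 1 pool took its spread from the other stages.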
